A study of Homo sapiens with 9 samples.

Results

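The genes described here are 10 inflammatory mediators and regulators, chosen by name from the 38021 genes of the expression table. They are the chemokines CXCL1, CXCL2, CXCL3, CXCL8 and CCL2, the cytokines IL6, LIF and IL1B, and the inhibitors of NF-κB signalling NFKBIA and TNFAIP3. All 10 names were found in the table, and each gene had reads in all 9 libraries. The RNA came from 786-O, an established line of human clear cell renal cell carcinoma without functional VHL, so the HIF2α protein is not degraded in any of the groups. Each group held 3 libraries that the labels call biological replicates. The shControl cells carried a non-targeting short hairpin RNA, the shARNT cells a hairpin against ARNT (also called HIF1β, the canonical partner of HIF2α), and the shBMAL1 cells a hairpin against BMAL1 (ARNTL in the table, the partner of CLOCK in the circadian clock and a relative of ARNT, examined in the study as a further partner of HIF2α). All groups, the control included, were infected with lentivirus carrying the hairpin and selected with puromycin. The labels name 1 group of libraries per targeted gene, so in these libraries effects of the hairpin itself and of the loss of its target cannot be told apart. The comparison asks how these genes are expressed when either partner protein is reduced, and whether the knockdowns differ from each other.

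CXCL1, CXCL2, CXCL3 and CXCL8 are chemokines with an ELR motif that attract neutrophils through the receptors CXCR1 and CXCR2, and CCL2 attracts monocytes through CCR2. IL6 and LIF signal through receptors that share the subunit gp130 (IL6ST) and activate JAK kinases and STAT3, whereas IL1B binds IL1R1 and activates NF-κB. NF-κB dimers are held in the cytoplasm by IκB proteins, of which NFKBIA encodes IκBα. When IL-1 or TNF receptors are engaged, the IKK complex marks IκBα for destruction, NF-κB enters the nucleus and transcribes chemokine and cytokine genes, and it also transcribes NFKBIA and TNFAIP3 (the ubiquitin-editing enzyme A20), which shut the signal off. Renal carcinoma lines are known to make IL-6 and interleukin-8 without added stimulus.

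The promoters were searched for 1 consensus of the sequence that NF-κB binds, which does not cover every site known to bind it. RefSeq promoters (GRCh38.p14, from 250 bases before to 50 bases after the start of transcription) were matched for 8 of the 10 genes, and CCL2 and LIF had no entry. The 10-base κB consensus, searched on both strands, was found in 6 of these 8 promoters and in 5.91% of all 35116 promoters. Each stretch below is printed 5′ to 3′ on the strand of the gene, with the κB matches in capitals.

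CXCL1 (chr4:73869294-73869344, plus strand): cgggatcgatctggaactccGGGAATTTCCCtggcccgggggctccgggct
CXCL2 (chr4:74099243-74099293, minus strand): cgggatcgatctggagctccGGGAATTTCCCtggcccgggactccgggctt
CXCL3 (chr4:74038738-74038788, minus strand): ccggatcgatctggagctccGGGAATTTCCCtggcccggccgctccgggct
IL6 (chr7:22727107-22727156, plus strand): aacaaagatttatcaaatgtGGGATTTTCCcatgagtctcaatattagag
NFKBIA (chr14:35404801-35404850, minus strand): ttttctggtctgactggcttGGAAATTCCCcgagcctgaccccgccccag

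In CXCL1, CXCL2 and CXCL3 the capitals are 2 overlapping matches that begin 79, 78 and 79 bases before the start of transcription, and the bases around them are nearly the same in the 3 genes, which lie in a cluster on chromosome 4. The form GGGAATTTCC was found in 4 of the 8 promoters (these 3 and NFKBIA, there on the other strand) and in 51 of all promoters, or 0.145%. The IL6 promoter carried the form GGGATTTTCC, found in 0.0911% of all promoters. TNFAIP3 and CXCL8 are shown for different elements. In TNFAIP3 the capitals mark, in order, CACGTG, the E-box to which CLOCK and BMAL1 bind, and 2 κB matches. In CXCL8 they mark TGACTCA, an AP-1 element.

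TNFAIP3 (chr6:137867161-137867233, plus strand): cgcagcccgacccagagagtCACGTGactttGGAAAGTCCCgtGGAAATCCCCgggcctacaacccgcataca
CXCL8 (chr4:73740412-73740458, plus strand): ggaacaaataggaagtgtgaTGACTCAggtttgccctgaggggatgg

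CACGTG was found in 1 of the 8 promoters and in 7.26% of all promoters, and TGACTCA in 1 of 8 and in 4.95%. The core of the element that HIF2α and ARNT bind was searched in both of its forms. The form that starts with A, ACGTG, was found in 1 of the 8 promoters (TNFAIP3, where it overlaps the E-box) and in 21.4% of all promoters. The form that starts with G, GCGTG, was found in 0 of the 8 and in 36.5% of all promoters. These matches describe the letters of 300-base windows and not binding of a factor.

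Sequencing depth was even, with between 33793045 and 35444735 reads assigned to genes per library and 20061 to 20773 genes with a read. Each targeted gene was lowest in its own group and was also lower in the other knockdown. ARNT fell from 2352 ± 184 (SD, n = 3) normalised read counts in shControl to 1225 ± 23.2 in shARNT (log2 fold change -0.94, DESeq2 adjusted p = 8.81e-35), and BMAL1, listed as ARNTL, fell from 761 ± 32.0 to 326 ± 29.2 in shBMAL1 (log2 fold change -1.23, adjusted p = 2.51e-25). ARNT was also lower in shBMAL1 than in shControl (-0.23, adjusted p = 0.0187), and ARNTL in shARNT (-0.26, adjusted p = 0.0294). All 10 markers of renal carcinoma and tubule cells that were examined had reads, and their summed level was 206031 to 238113 normalised counts over the 9 libraries. Of 11 leukocyte markers, 4 (CD3E, MS4A1, LYZ and TYROBP) had no read in any library and PTPRC (CD45) averaged 0.327 normalised counts. The summed leukocyte level was 441 to 504 in shControl, 298 to 333 in shARNT and 247 to 281 in shBMAL1, most of it CSF1R, which averaged 323 over the 9 libraries. Of 6 endothelial markers CDH5 had no read, and the sums were 10.1 to 19.99, 11.7 to 17.9 and 13.7 to 21.2 in the same order. The 6 fibroblast markers summed to 241 to 304, 215 to 231 and 380 to 432, with LUM and COL1A1 making up most of it and the defining fibroblast gene DCN at 0.882 on average. The share of reads from mitochondrial genes was 6.21% ± 0.854 (SD, n = 3) in the controls, 8.06% ± 0.604 with shARNT and 9.33% ± 0.538 with shBMAL1, without overlap between shControl and either knockdown, and its part in the results was not tested.

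The 10 genes spanned a wide range of levels. Divided by transcript length, NFKBIA was highest in shControl at 32.1 ± 0.723 (SD, n = 3) reads per kilobase of transcript, scaled to library size (RPKM), followed by LIF at 10.8 ± 0.583, IL6 at 6.59 ± 0.541 and TNFAIP3 at 3.67 ± 0.536. CXCL8 at 2.98 ± 0.240, CXCL1 at 2.96 ± 0.0648 and CCL2 at 2.80 ± 0.355 came next, and these neighbours differed by less than the larger of their SDs. CXCL2 at 0.472 ± 0.220, CXCL3 at 0.383 ± 0.295 and IL1B at 0.102 ± 0.0727 were lowest, again with neighbours that differed by less than the larger SD. The lengths are those of the canonical transcript of each gene, so the order rests on the cells using it. On the same per-length scale IL1B was at 1.17 ± 0.222 in shARNT, next to CXCL8 at 1.19 ± 0.0346, and at 0.0256 ± 0.0111 in shBMAL1.

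**Figure D1:**
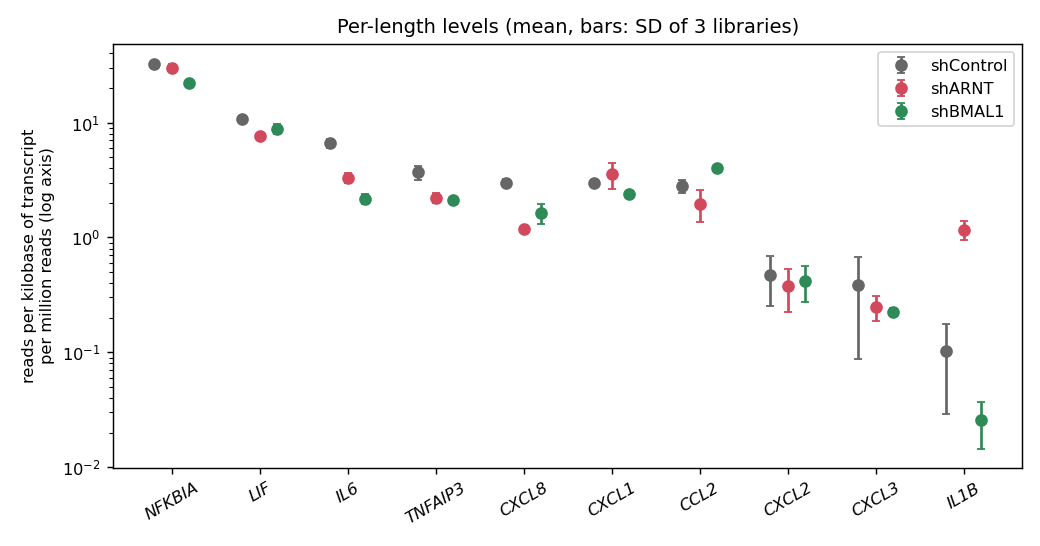
Per-length level of the 10 genes in RPKM (log axis), one symbol per group, with the mean and SD of 3 libraries. NFKBIA, at 32.1 in shControl, is the highest gene, and IL1B ranges from 0.0256 in shBMAL1 to 1.17 in shARNT.

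Against shControl, most of the genes that changed were lower in both knockdowns. In shARNT, 9 of the 10 genes were tested (CXCL3 had too few reads to pass the filter) and 5 passed an adjusted p of 0.1. CXCL8, IL6, LIF and TNFAIP3 were lower and IL1B was higher. Over all 15164 genes tested in this comparison 35.4% were called, made up of 19.0% that were lower in shARNT and 16.5% that were higher, against 55.6%, 44.4% and 11.1% of the 9 genes. Their median log2 fold change was -0.51, and that of all genes tested was 0.0028. In shBMAL1 all 10 were tested, 5 were lower (CXCL8, IL6, LIF, NFKBIA and TNFAIP3) and 0 were higher, with 6 of the 10 at an unadjusted p under 0.05. Over all 19036 genes tested 36.8% were called, 19.4% lower and 17.4% higher, against 5 of the 10 lower and 0 higher here. The median log2 fold change of the 10 was -0.69 and that of all genes tested 0.0153. By edgeR, 6 of 9 tested passed in shARNT and 7 of 8 in shBMAL1 (CXCL3, and in shBMAL1 also IL1B, were not tested), against 38.7% and 48.6% of all genes tested. With 9 and 10 genes these shares are descriptions, and no test was made over the set. Both comparisons use the same 3 shControl libraries. The RNA came from whole cultures, so fewer cells expressing a gene and less RNA of it per cell cannot be told apart.

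**Figure D2:**
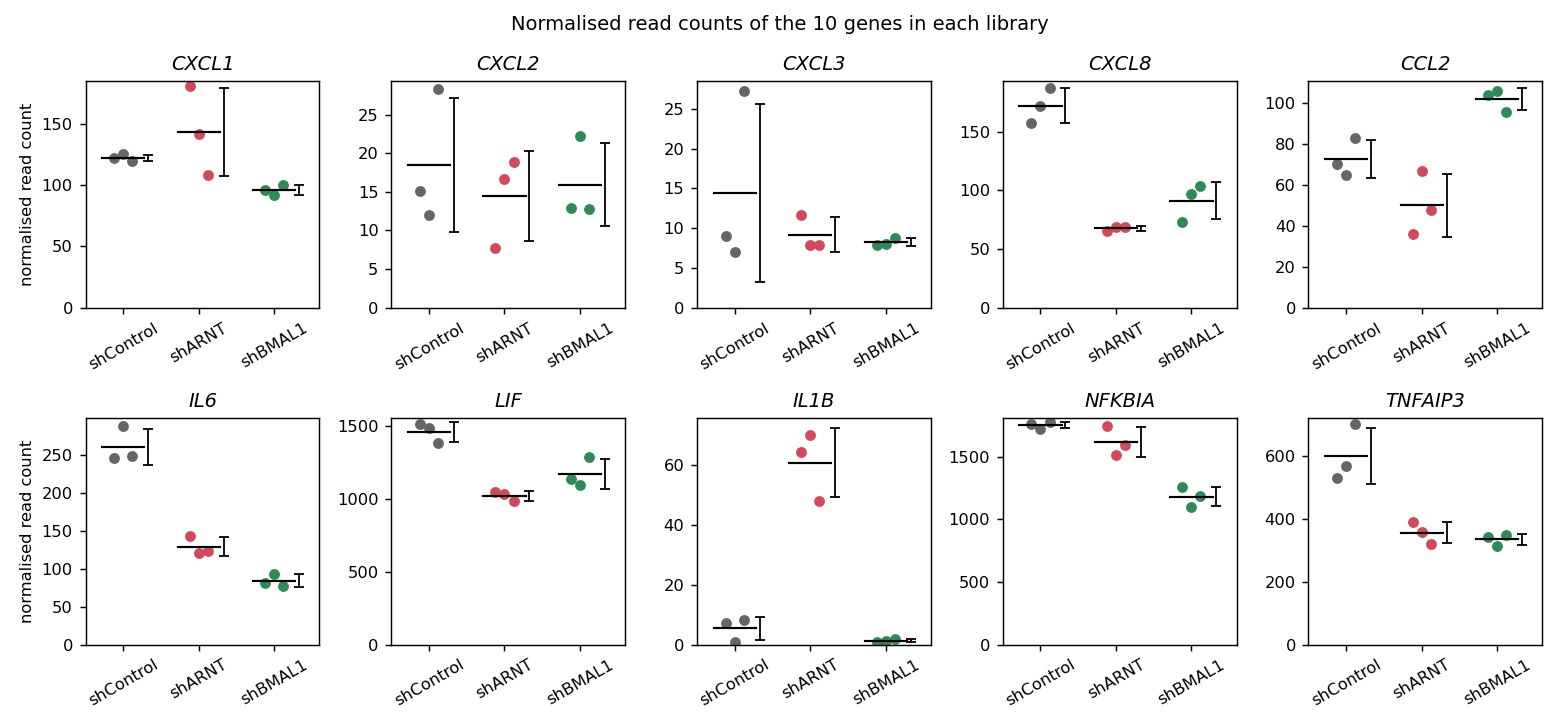
Normalised read count (vertical axes, from 0) of each of the 10 genes in the 3 libraries of shControl, shARNT and shBMAL1, with points for libraries and group means with SD. IL6 stands between 245 and 288 in shControl and between 76.9 and 144 in both knockdowns, and IL1B is high in the shARNT libraries alone.

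Among the ELR chemokines, CXCL8 was lower in both knockdowns. CXCL8 (chromosome 4, bases 74606236 to 74609433 of GRCh37, plus strand) encodes interleukin-8. Its normalised read counts were 157, 172 and 187 in the shControl libraries, 65.3, 68.7 and 68.6 in the shARNT libraries, and 73.5, 96.7 and 104 in the shBMAL1 libraries. Every knockdown library was below every control library. The level fell 2.54-fold in shARNT (log2 fold change -1.35 ± 0.21, SE, adjusted p = 1.51e-09) and 1.88-fold in shBMAL1 (-0.91 ± 0.21, adjusted p = 7.17e-05). Between the knockdowns the groups did not overlap, but the difference did not pass the threshold (shBMAL1 against shARNT, log2 fold change 0.43, 95% interval -0.06 to 0.93, adjusted p = 0.197), whereas edgeR gave an adjusted p of 0.0876.

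CXCL1 moved differently. This gene (chromosome 4, bases 74735110 to 74737025, plus strand) encodes GROα, first described as a melanoma growth factor. It had 122, 125 and 119 normalised counts in the controls, 180, 141 and 108 with shARNT and 96.3, 91.7 and 99.9 with shBMAL1. The shARNT libraries spread on both sides of the control, while the shBMAL1 libraries were all below the other 6. Neither knockdown differed from shControl by DESeq2 (shARNT, log2 fold change 0.24 ± 0.21, adjusted p = 0.451, and shBMAL1, -0.35 ± 0.21, adjusted p = 0.212, for which edgeR gave 0.0959). Directly compared, shBMAL1 was lower than shARNT by 0.58 ± 0.22 on the log2 scale (adjusted p = 0.0355). This call rests on the high shARNT replicate 1, without which the log2 difference was -0.38 and the adjusted p 0.31. It was also lost without shARNT replicate 2 (adjusted p = 0.101) or shBMAL1 replicate 2 (0.114).

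CXCL2 and CXCL3, the close relatives of CXCL1 on chromosome 4 (bases 74962757 to 74964913 and 74902306 to 74904524, both minus strand), had few reads in all groups. CXCL2 had 15.1, 12 and 28.3 normalised counts in the controls, 7.80, 16.7 and 18.9 with shARNT and 12.9, 22.2 and 12.7 with shBMAL1. CXCL3 had 9.06, 7 and 27.3, then 11.7, 7.86 and 7.95, then 7.94, 8.06 and 8.81 in the same order. The groups overlapped for both genes, and the highest value of each was in shControl replicate 3. For CXCL2 the 95% interval of the log2 fold change ran from -1.47 to 0.77 in shARNT and from -1.30 to 0.87 in shBMAL1, with few reads and a wide spread between libraries. Without shControl replicate 3 the direction of both genes turned in both knockdowns, to log2 fold changes between 0.04 and 0.23. No stretch of 100 bases of any of the 10 transcripts occurs in another gene, but 5.33% of the 50-base windows of CXCL1, 10.1% of those of CXCL2 and 5.26% of those of CXCL3 are shared among the 3 genes. With their reads added into 1 row, the log2 fold change was 0.11 in shARNT (adjusted p = 0.728), -0.37 in shBMAL1 (0.139) and -0.48 between shBMAL1 and shARNT (0.0551).

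CCL2 (chromosome 17, bases 32582293 to 32584227, plus strand), the monocyte chemoattractant MCP-1, separated the knockdowns. It had 70.4, 65.0 and 82.9 normalised counts in the controls, 36.1, 66.8 and 47.7 with shARNT and 104, 106 and 96.0 with shBMAL1. Every shBMAL1 library was above every other library, and shARNT replicate 2 lay within the range of the controls. The level in shBMAL1 was 2.03-fold that in shARNT (log2 fold change 1.02 ± 0.27, adjusted p = 0.00108, and 0.026 or lower with any 1 library left out). Against shControl neither change passed the threshold in the DESeq2 fit of all genes (shARNT, -0.53 ± 0.30, adjusted p = 0.178, and shBMAL1, 0.49 ± 0.24, adjusted p = 0.107). Both passed it by edgeR (0.0926 and 0.0389). By DESeq2 the shBMAL1 change passed it when genes with few counts were left out (at least 10 counts in 3 libraries, adjusted p = 0.0634), and the shARNT change passed it without shARNT replicate 2 (log2 fold change -0.79, adjusted p = 0.0846).

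Among the cytokines, IL6 had the lowest adjusted p of the 10 genes in shBMAL1. IL6 (chromosome 7, bases 22765503 to 22771621, plus strand) had 245, 288 and 249 normalised counts in the controls, 144, 120 and 123 with shARNT and 81.5, 93.4 and 76.9 with shBMAL1. The 3 groups did not overlap, with shControl highest and shBMAL1 lowest. IL6 fell 2.02-fold in shARNT (log2 fold change -1.01 ± 0.17, adjusted p = 1.95e-08) and 3.10-fold in shBMAL1 (-1.63 ± 0.18, adjusted p = 2.55e-17). The level in shBMAL1 was also below that in shARNT by 0.62 ± 0.22 on the log2 scale (adjusted p = 0.0182), a call lost without shARNT replicate 1 (-0.53, adjusted p = 0.131). The gene overlaps the antisense gene IL6-AS1 and STEAP1B on the minus strand, and whether the counting used strand is not given in the sources used here, so reads of overlapping genes cannot be told apart by strand. The counts of IL6 were fractional, and with those of the row LOC541472 they added up to whole reads, 285, 332 and 282 for the controls, 174, 175 and 161 for shARNT, and 116, 109 and 106 for shBMAL1. This sum too was lower in every knockdown library than in every control library. STEAP1B had between 0 and 17 reads.

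LIF, the leukaemia inhibitory factor, had the highest counts of the 3 cytokines, and its changes were smaller than those of IL6. LIF (chromosome 22, bases 30636442 to 30642748, minus strand, overlapped by LIF-AS1 and LIF-AS2 on the plus strand) had 1514, 1485 and 1381 normalised counts in the controls, 1045, 1033 and 984 with shARNT and 1134, 1097 and 1291 with shBMAL1. All knockdown libraries were below all control libraries, and shARNT was below shBMAL1 without overlap. LIF fell 1.43-fold in shARNT (log2 fold change -0.51 ± 0.08, adjusted p = 3.32e-10) and 1.25-fold in shBMAL1 (-0.32 ± 0.09, adjusted p = 0.00228). The level in shBMAL1 exceeded that in shARNT by 0.20 ± 0.09 on the log2 scale (adjusted p = 0.0844), a call that was lost without any 1 of the shARNT libraries (0.148 to 0.269) or without shBMAL1 replicate 3 (0.388).

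IL1B (chromosome 2, bases 113587328 to 113594393, minus strand), the secreted ligand of the IL-1 receptor, was called higher in shARNT than in shControl. It had 7.04, 1.00 and 8.09 normalised counts in the controls, 64.3, 69.7 and 47.7 with shARNT and 0.993, 1.01 and 1.96 with shBMAL1. The shARNT libraries were all far above the other 6, and shControl replicate 2 was as low as the shBMAL1 libraries. Summed over the 3 libraries of a group, there were 16 reads from the controls, 185 from the shARNT cells and 4 from the shBMAL1 cells. IL1B rose 11.3-fold in shARNT (log2 fold change 3.50 ± 0.52, adjusted p = 2.56e-10, 95% counting interval of the ratio 6.78 to 20.2). The level in shBMAL1 was 45.8-fold below that in shARNT (log2 fold change -5.52 ± 0.81, adjusted p = 1.73e-10, counting interval 17.6 to 170). In shBMAL1 against shControl the ratio was 0.247 (counting interval 0.0601 to 0.765), and the DESeq2 test did not pass the threshold (adjusted p = 0.255), although 1 fit of all 9 libraries gave 0.0686. These intervals cover counting error only.

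The inhibitors of NF-κB differed in where they were lower. NFKBIA (chromosome 14, bases 35870285 to 35873955, minus strand) had 1761, 1726 and 1776 normalised counts in the controls, 1751, 1515 and 1592 with shARNT and 1256, 1103 and 1190 with shBMAL1. The shBMAL1 libraries were all below the other 6, while shARNT replicate 1 lay within the control range. NFKBIA fell 1.49-fold in shBMAL1 (log2 fold change -0.57 ± 0.08, adjusted p = 4.82e-11), and the change in shARNT was -0.11 ± 0.07 (adjusted p = 0.259, and 0.0944 without shARNT replicate 1). The level in shBMAL1 was below that in shARNT by 0.45 ± 0.09 on the log2 scale (adjusted p = 2.92e-06, and 0.000696 or lower with any 1 library left out).

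TNFAIP3 (chromosome 6, bases 138188351 to 138204451, plus strand, overlapped by WAKMAR2 on the minus strand) was lower in both knockdowns. It had 532, 568 and 704 normalised counts in the controls, 390, 357 and 322 with shARNT and 342, 313 and 350 with shBMAL1. Every knockdown library was below every control library, and the knockdowns overlapped each other. TNFAIP3 fell 1.68-fold in shARNT (log2 fold change -0.75 ± 0.13, adjusted p = 6.23e-08) and 1.80-fold in shBMAL1 (-0.85 ± 0.13, adjusted p = 1.51e-09). The difference between the knockdowns was -0.09 (95% interval -0.35 to 0.17, adjusted p = 0.674).

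**Figure D3:**
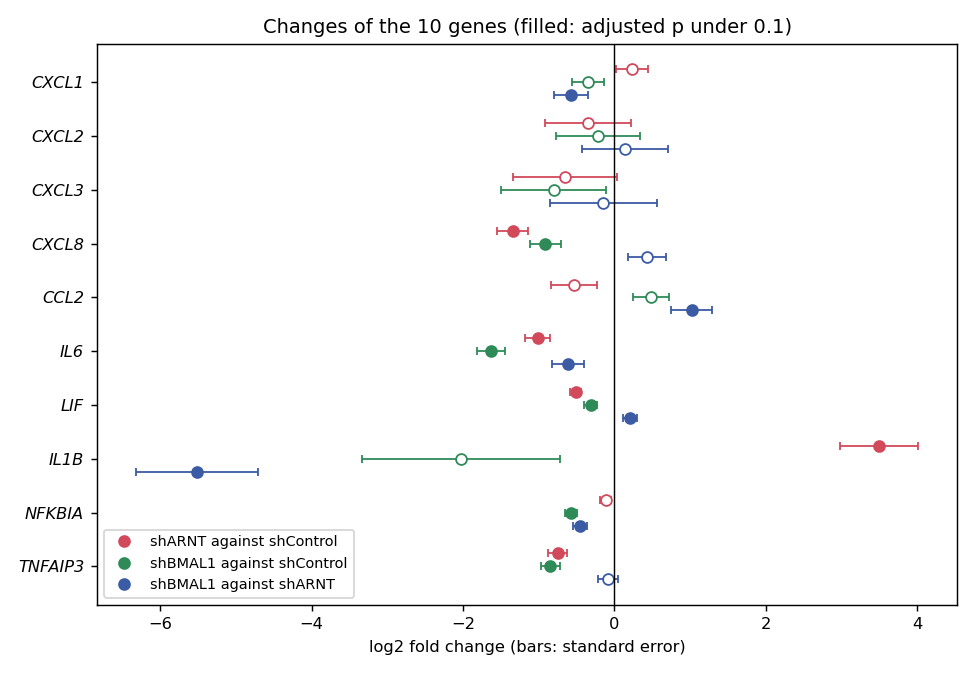
Log2 fold change (horizontal axis) with its SE for each of the 10 genes in each knockdown against the control and between the knockdowns, filled where the DESeq2 adjusted p was under 0.1. CXCL8, IL6, LIF and TNFAIP3 are filled and left of 0 in both knockdowns, and IL1B lies at 3.50 in shARNT and at -5.52 between the knockdowns.

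In the direct comparison of the knockdowns, 6 of the 10 genes passed the threshold, against 35.3% of the 18181 genes tested (by edgeR 7 of 9 tested, against 44.4%). CXCL1, IL6, IL1B and NFKBIA were lower in shBMAL1 than in shARNT (18.0% of all genes tested were called in this direction) and CCL2 and LIF were higher (17.3%). Of these 6 calls, those of CXCL1, IL6 and LIF were lost when 1 library was left out, and those of IL1B, CCL2 and NFKBIA were not. The median log2 difference of the 10 was -0.12 and that of all genes tested 0.0094.

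The other genes of the pathway were read from 12 lists holding 169 genes, which include the 10 genes themselves. Their counts can be read against all genes tested, of which 19.0% fell and 16.5% rose in shARNT, and 19.4% fell and 17.4% rose in shBMAL1. Where fewer genes of a list were tested in shARNT, its medians in the knockdowns cover different genes. Of the 8 genes listed with the ELR chemokines, which include PF4 although it lacks the ELR motif, 2 fell and 0 rose in each knockdown. In shARNT 4 were tested (median log2 fold change -0.40) and in shBMAL1 5 (-0.81). The shBMAL1 median is the value of CXCL3 (adjusted p = 0.433), which was not tested in shARNT. Without shControl replicate 3 that value was 0.04. Beside CXCL8 the gene that fell was CXCL5, which encodes a neutrophil attractant and averaged 324 normalised counts in the controls, 236 with shARNT and 126 with shBMAL1 (log2 fold changes -0.46, adjusted p = 0.00345, and -1.36, adjusted p = 1.7e-15). CXCL5 was lower in shBMAL1 than in shARNT by 0.90 on the log2 scale (adjusted p = 2.4e-06).

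Of the 18 other chemokines, most had few or no reads. In shARNT 6 were tested, 1 fell and 1 rose, and in shBMAL1 8 were tested, 2 fell and 1 rose, with median log2 fold changes of -0.05 and 0.08. CCL5, which attracts T cells and monocytes, fell in both (mean 163 in the controls, 88.0 with shARNT and 77.0 with shBMAL1, log2 fold changes -0.89 and -1.09). CX3CL1, a membrane-bound chemokine, rose in both (mean 230, 301 and 481, log2 fold changes 0.39 and 1.06), and CCL26 fell in shBMAL1 (-0.73, adjusted p = 0.0923).

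The IL6 family had 8 genes, of which 4 were tested. In shARNT 3 fell and 0 rose, and in shBMAL1 2 fell and 1 rose, with medians of -0.62 and -0.16. The gene that moved in opposite directions was IL11, another cytokine that signals through gp130. IL11 had 65.4, 59.0 and 77.8 normalised counts in the controls, 43.8, 54.0 and 24.8 with shARNT and 123, 116 and 112 with shBMAL1. The groups did not overlap. The log2 fold change was -0.72 in shARNT (adjusted p = 0.0836) and 0.79 in shBMAL1 (adjusted p = 0.0034), and the difference between the knockdowns was 1.51 (adjusted p = 8.87e-07).

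Among 13 ligands of the IL-1 and TNF families, 2 fell and 3 rose of 5 tested in shARNT, and 4 fell and 0 rose of 8 tested in shBMAL1, with medians of 0.23 and -0.59. These medians cover different genes. TNFSF13B, TNFSF15 and LTB had few reads and were tested in shBMAL1 but not in shARNT. Their log2 fold changes in shARNT were -1.64, -0.77 and 0.16. IL18, a relative of IL1B that also needs cleavage by caspase-1, had 145, 144 and 122 normalised counts in the controls, 248, 286 and 242 with shARNT and 85.4, 75.6 and 89.1 with shBMAL1. As for IL1B, every shARNT library was above the controls, and for IL18 every shBMAL1 library was below them. IL18 rose by a log2 fold change of 0.92 in shARNT (adjusted p = 3.69e-07), fell by 0.72 in shBMAL1 (adjusted p = 0.00383) and differed by -1.63 between the knockdowns (adjusted p = 2.02e-17). TNFSF10, the death ligand TRAIL, was the most abundant of this list and fell from 20444 to 10966 with shARNT and 14772 with shBMAL1 (log2 fold changes -0.90 and -0.47), and TNFSF9, the ligand of the receptor 4-1BB, rose in shARNT (0.23, adjusted p = 0.0118). TNF, named after its values were seen, was low (19.99 to 25.3 normalised counts in shControl, 2.95 to 12.9 in shARNT and 4.03 to 11.8 in shBMAL1) and fell in both (adjusted p = 0.0512 and 0.0233).

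Of the 15 receptors for these ligands, 10 were tested, with 1 lower and 5 higher in shARNT and 0 lower and 5 higher in shBMAL1 and medians of 0.19 and 0.27. CXCR1, CXCR2 and TNFRSF1B had no read in any library, so the receptors of the ELR chemokines were not detected in these cells. IL1R1, the signalling receptor of IL-1, rose in both (mean 945 in the controls, 1738 with shARNT and 2277 with shBMAL1, log2 fold changes 0.88 and 1.27). IL1R2, the decoy receptor of IL-1, had means of 449, 285 and 1105, and so fell in shARNT (-0.65, adjusted p = 9.43e-06) and rose in shBMAL1 (1.30, adjusted p = 9.54e-34), with a difference of 1.95 between the knockdowns (adjusted p = 1.54e-65). IL6ST, the gp130 subunit shared by the IL6 and LIF receptors, rose in both (0.23 in shARNT, adjusted p = 0.000201, and 0.46 in shBMAL1, adjusted p = 2.37e-06). TNFRSF1A, the main TNF receptor, rose by 0.38 in shARNT and was at -0.01 in shBMAL1 (adjusted p = 0.92). IL1RAP, the co-receptor of IL1R1, rose in both (0.27 in shARNT, adjusted p = 0.0163, and 0.24 in shBMAL1, adjusted p = 0.0512).

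**Figure D4:**
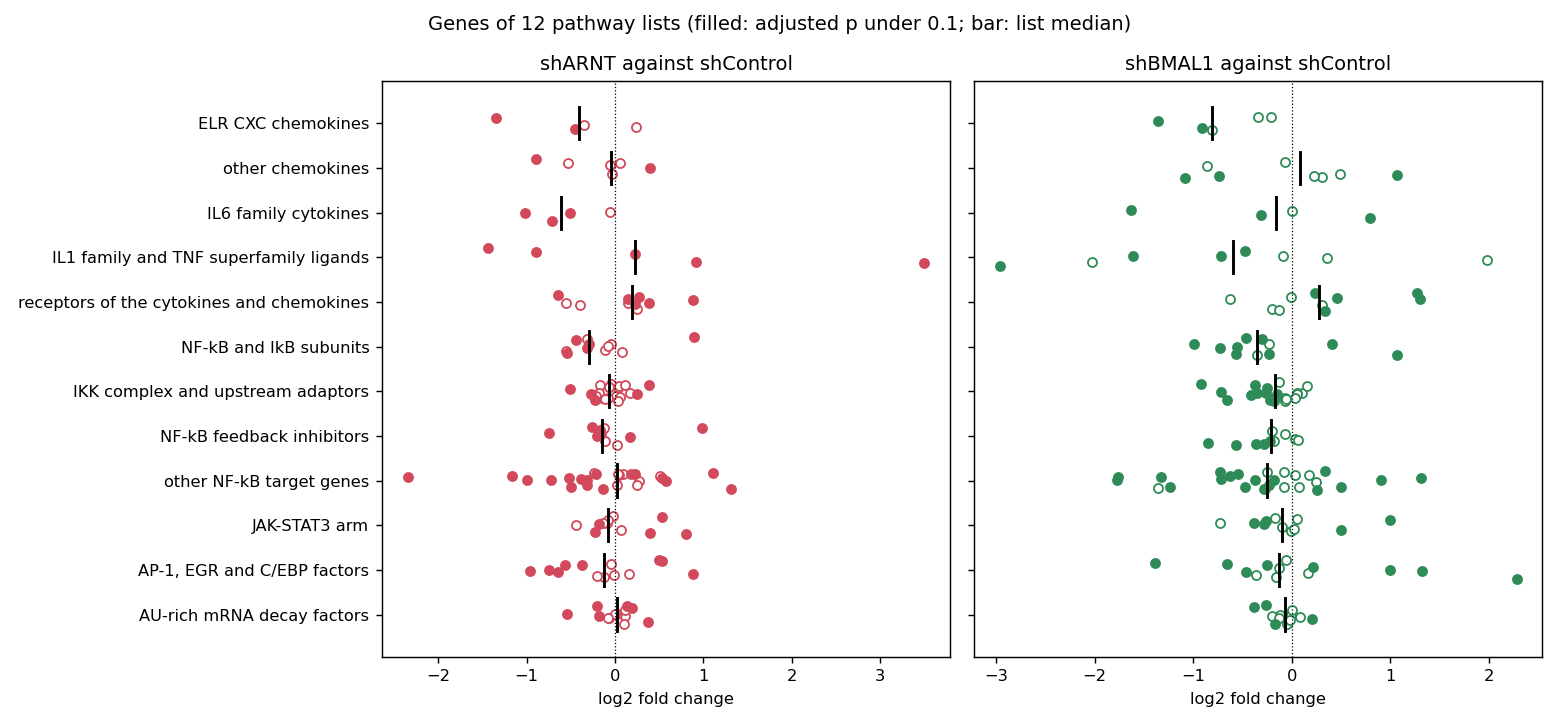
Log2 fold change (horizontal axis) of each tested gene of 12 lists in shARNT against shControl (first panel) and shBMAL1 against shControl (second panel), filled where the adjusted p was under 0.1, with a bar at the list's median. The median of the IL-1 and TNF family ligands is 0.23 in shARNT and -0.59 in shBMAL1. More genes of this list were tested in shBMAL1, so these medians cover different genes.

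Of the 11 subunits of NF-κB and IκB, 4 fell and 1 rose in shARNT, and 7 fell and 2 rose in shBMAL1, with medians of -0.30 and -0.35. NFKB2 (p100, the precursor of p52) fell by 0.44 in shARNT and by 0.99 in shBMAL1 on the log2 scale, and its partner RELB fell by 0.31 and 0.73. NFKBIE (IκBε) fell in both (-0.54 in shARNT, adjusted p = 2.85e-07, and -0.56 in shBMAL1, adjusted p = 3.11e-06). NFKBIZ, a nuclear IκB protein that is required for transcription of some late NF-κB targets, rose by 0.89 and 1.07. BCL3, another nuclear IκB protein, rose by 0.40 in shBMAL1.

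The IKK complex and the adaptors upstream of it comprised 22 genes, of which 3 fell and 2 rose in shARNT and 12 fell and 0 rose in shBMAL1, with medians of -0.07 and -0.17. Of all genes tested, 35.4% and 36.8% were called in either direction. IRAK2, a kinase of the IL-1 receptor complex, averaged 559 in the controls, 661 with shARNT and 295 with shBMAL1, a log2 fold change of 0.25 in shARNT (adjusted p = 0.0524) and of -0.92 in shBMAL1 (adjusted p = 4.52e-12), and differed by -1.16 between the knockdowns (adjusted p = 2.73e-18). IRAK1, of the same complex, fell by 0.72 in shBMAL1, as did the adaptor TRAF5 (-0.66, adjusted p = 0.00889). RBCK1, a subunit of the linear ubiquitin ligase, fell by 0.51 in shARNT and was at 0.03 in shBMAL1 (adjusted p = 0.744). RNF31, of the same ligase, fell in both knockdowns (-0.27 in each). The kinase MAP3K14 also fell in both (-0.22 in shARNT, and -0.16 in shBMAL1, adjusted p = 0.07). CHUK (IKKα) rose by 0.39 in shARNT and fell by 0.22 in shBMAL1 (adjusted p = 0.0655).

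Of the 12 feedback inhibitors, 10 were tested, with 5 lower and 2 higher in shARNT and 5 lower and 0 higher in shBMAL1 and medians of -0.14 and -0.21. Beside TNFAIP3 and NFKBIA, these included ITCH, a ubiquitin ligase that works with A20 (-0.16 in shARNT and -0.37 in shBMAL1), and TNFRSF11B, the secreted decoy receptor osteoprotegerin, which rose in shARNT from 257 to 508 (0.98, adjusted p = 2.99e-13). The A20-binding protein TNIP2 (-0.26 in shARNT and -0.28 in shBMAL1) and the deubiquitinase CYLD (-0.20 and -0.22) fell in both knockdowns. TAX1BP1, which binds A20, rose in shARNT (0.17).

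The 29 other NF-κB targets moved in both directions. In shARNT 11 fell and 6 rose of 25 tested, and in shBMAL1 14 fell and 5 rose of 27, with medians of 0.03 and -0.25. CSF2 (the growth factor GM-CSF) had 93.6, 81.0 and 130 normalised counts in the controls, 24.4, 14.7 and 20.9 with shARNT and 33.8, 35.3 and 20.6 with shBMAL1. All control libraries were above all knockdown libraries. CSF2 fell 5.07-fold in shARNT (log2 fold change -2.34, adjusted p = 4.01e-11) and 3.41-fold in shBMAL1 (-1.77, adjusted p = 1.92e-07). TRAF1, an adaptor of TNF receptors, averaged 202 in the controls, 101 with shARNT and 59.5 with shBMAL1, and LAMB3, a laminin chain, fell by 1.17 and 1.33 on the log2 scale. SOD2, the mitochondrial superoxide dismutase that NF-κB induces, averaged 2991 in the controls, 7409 with shARNT and 2312 with shBMAL1. It rose by 1.31 in shARNT (adjusted p = 9.01e-72) and fell by 0.37 in shBMAL1, and differed by -1.68 between the knockdowns (adjusted p = 3.01e-136). Complement C3 rose in both (1.10 and 0.91), as did VCAM1 (0.57 and 0.33). TNFAIP6, a hyaluronan-binding protein, fell by 0.38 in shARNT (adjusted p = 0.0997) and rose by 1.31 in shBMAL1, and SDC4, a heparan sulphate proteoglycan, rose by 0.50 in shBMAL1.

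Downstream of IL6 and LIF, the JAK and STAT3 list of 11 genes had 2 lower and 3 higher in shARNT and 3 lower and 2 higher in shBMAL1, with medians of -0.08 and -0.10. The kinases TYK2 (-0.22) and JAK1 (-0.18) fell in shARNT, and the phosphatase PTPN11 (-0.38), JAK2 (-0.28) and the STAT3 inhibitor PIAS3 (-0.26) fell in shBMAL1. The STAT3 targets BCL6 (0.80 and 0.50) and CEBPD (0.54 and 1.00) rose in both knockdowns, and SOCS3, the feedback inhibitor of gp130 signalling, had a log2 fold change of 0.40 in shARNT (adjusted p = 0.0697). In shBMAL1 the value for SOCS3 was -0.17 (adjusted p = 0.573). PIM1 (-0.14 and 0.03) and SOCS1 (-0.44 and -0.73), also STAT3 targets and named after their values were seen, passed the threshold in neither knockdown.

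Of the 13 AP-1, EGR and C/EBP factors, which act at chemokine promoters together with NF-κB, 5 fell and 3 rose in shARNT and 4 fell and 4 rose in shBMAL1, with medians of -0.12 and -0.13. The AP-1 subunit FOSL1 averaged 11869 in the controls, 6071 with shARNT and 4547 with shBMAL1 (log2 fold changes -0.96 and -1.39), and JUN fell by 0.64 and 0.66. Another AP-1 subunit, FOSB, rose by 0.89 in shARNT (adjusted p = 0.00972). EGR1 was at 230 in shControl and 1121 in shBMAL1 (2.28, adjusted p = 7.14e-76), and EGR2 fell in shARNT (-0.74, adjusted p = 0.0453) and rose in shBMAL1 (1.32). CEBPB, which binds the IL6 promoter, rose by 0.49 in shARNT and fell by 0.46 in shBMAL1, a difference of -0.95 between the knockdowns.

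Chemokine and cytokine messages carry AU-rich elements through which they are degraded. A list of 13 factors that act on messages was read, not all of which recognise such elements. Of these, 3 fell and 3 rose in shARNT and 3 fell and 1 rose in shBMAL1, with medians of 0.02 and -0.07. ZFP36 (tristetraprolin), which promotes decay, fell by 0.54 in shARNT, where its relatives ZFP36L1 and ZFP36L2 had log2 fold changes of -0.21 and 0.38. ELAVL1 (HuR), which stabilises such messages, fell by 0.19 in shARNT and 0.26 in shBMAL1. RC3H2 (roquin-2) fell by 0.38 in shBMAL1 (adjusted p = 3.18e-06), as did the deadenylase PARN (-0.17, adjusted p = 0.0539). TIA1, which represses translation of such messages, rose in both (0.19, adjusted p = 0.0136, and 0.20, adjusted p = 0.0698), and KHSRP, a decay factor, rose in shARNT (0.14, adjusted p = 0.0501).

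The genes whose levels over the 9 libraries were most like those of CXCL8, IL6 and CCL2 were sought among 12936 genes, by Pearson correlation of log2 values. The 9 points come from 3 groups, so a gene that differs between groups in the same way gives a high value, and no p is given. For CXCL8 they were KCTD20 (0.988), IFIT5 (0.981), GJB2 (0.978), C1orf106 (0.977) and KDM7A (0.973). For IL6 they were MAP1B (0.995), CIT (0.994), FTSJ1 (0.993), GRAMD3 (0.989) and PEA15 (0.988). For CCL2 they were DALRD3 (0.984), MACROD1 (0.957), RNF185 (0.956), BAHCC1 (0.953) and LOC102724344 (0.952). None of these 15 genes belongs to the pathway lists.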

How the data were processed

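RNA of 3 shControl, 3 shARNT and 3 shBMAL1 libraries of 786-O cells was sequenced from stranded mRNA libraries. The deposited table holds estimated counts per gene (linear total reads), which the authors made, per the study's methods, with SeqMan NGen 17 and ArrayStar 17 on GRCh37. The submitters' processing notes name STAR and hg38 instead, so the build is uncertain. The annotation and the strand setting are not given in the sources used here. The code 0.009 was read as 0, 53 rows that shared a name were added, and values were rounded for testing.

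Each pair of groups was fitted with DESeq2 1.42.0 (R 4.3.3, Wald test, median-of-ratios size factors, Benjamini-Hochberg adjustment over all genes tested, called at adjusted p under 0.1). The replicates are biological per the labels. Levels are counts divided by size factors of all 9 libraries. Pathway genes were named by rule, the up to 3 most lowered and 3 most raised called genes per list and knockdown with a mean of at least 20. Genes alike were the 5 with the highest r among genes with a mean of at least 50 (log2 of the normalised count plus 1). Alternatives were edgeR 4.0.16, TMM factors, a filter of 10 counts in 3 libraries, adjusted p under 0.05, a 1.5-fold minimum, 1 fit of all libraries, a replicate block, each library left out, and CXCL1, CXCL2 and CXCL3 added. Gene positions are GENCODE v44 lifted to GRCh37. Scripts were tested on simulated data. The 10 genes and all lists were chosen with earlier results of these data known.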

Additional observations from a re-analysis of the deposited data

Results flagged for a closer look

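The effects of the knockdowns differed from each other, by the direct DESeq2 test and in opposite directions against shControl, for 3 of the 10 genes. The share of all genes that met both conditions was not computed, so this count has no background. The direct test alone called 35.3% of all genes tested. CXCL1 differed by -0.58 on the log2 scale (shBMAL1 against shARNT, adjusted p = 0.0355), with group means of 143 normalised counts in shARNT and 96.0 in shBMAL1 around 122 in shControl. That call was lost without shARNT replicate 1 (-0.38, adjusted p = 0.31), shARNT replicate 2 (0.101) or shBMAL1 replicate 2 (0.114), and with a block for the replicate number (0.12). IL1B differed by -5.52 (adjusted p = 1.73e-10), with means of 60.6 and 1.32 around 5.38. CCL2 differed by 1.02 (adjusted p = 0.00108), with means of 50.2 and 102 around 72.8. Against shControl, neither change of CXCL1 or CCL2 passed the threshold by DESeq2 in the fits of all genes, and the change of IL1B passed it in shARNT but not in shBMAL1 (adjusted p = 0.255), so the opposite directions are those of the group means.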

How the results depend on the processing

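Of 311 values of the 10 genes under the alternatives, 286 kept their direction and their side of the threshold, 8 passed it anew, 10 no longer passed it and 7 turned direction. All 7 turns were in CXCL2 and CXCL3 with 1 library left out. Without shControl replicate 3 the log2 fold changes of CXCL2 and CXCL3 were 0.10 and 0.19 in shARNT and 0.23 and 0.039 in shBMAL1. Between the knockdowns CXCL2 was at -0.16 without shARNT replicate 1 and -0.17 without shBMAL1 replicate 2, and CXCL3 at 0.062 without shARNT replicate 1. With any 1 library left out, CXCL2 ranged from -0.59 to 0.10 in shARNT, from -0.53 to 0.23 in shBMAL1 and from -0.17 to 0.38 between the knockdowns, and CXCL3 from -1.14 to 0.039 in shBMAL1 and from -0.25 to 0.062 between the knockdowns.

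With a minimum change of 1.5-fold the genes called fell from 5374 to 1200 in shARNT, from 7005 to 2606 in shBMAL1 and from 6409 to 2064 between the knockdowns, and the calls among the 10 genes to 4 in shARNT (without LIF), 3 in shBMAL1 and 3 between the knockdowns. With 1 library left out, 4174 to 4508, 5744 to 6347 and 5087 to 5928 genes were called in the same order, and 5 to 6, 5 to 5 and 3 to 6 of the 10. The replicate numbers did not pair the libraries (correlations of deviations from the group means between -0.154 and 0.105 for equal numbers), and not every library correlated best with its own number. In a fit with a block for the replicate number, 4150, 5742 and 5388 genes and 5, 5 and 4 of the 10 were called, CXCL1 and LIF being lost between the knockdowns (adjusted p = 0.12 and 0.172). Depth limits CXCL2, CXCL3 and IL1B, with 55, 43 and 16 reads over the 3 shControl libraries.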
